A study of Saccharomyces cerevisiae with 9 samples.

Results

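The total tRNA of budding yeast was compared between cells depleted of Not1 and wild-type cells, as read by a single dye on 6 two-colour tRNA microarrays. These were the 6 charging arrays among the 9 arrays of the series, and only their red channel was used, in which an Atto dye was ligated to total tRNA after removal of the amino acids. The same dye carried total tRNA in both strains, so that the comparison between strains crossed no dyes. There were 3 arrays of Not1-depleted cells and 3 of the wild-type, each from a culture grown independently.

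Both strains were listed as MATa HIS3,15 ADE2 trp1-1 can1-100 with the same mutant allele of leu2, and with the plant F-box gene OsTIR1 under the pADH1 promoter at ura3-1. The strain used for depletion (MY13523) additionally carried NOT1-AID-Myc6-NATMX4 in place of not1, and the wild-type (MY13472) did not. The AID tag binds OsTIR1 when auxin is added and is then degraded together with the tagged protein. Cells grew in YPD, and both strains are recorded with 15 min of auxin (1 mM). The study's methods state ethanol instead of auxin for the control. The study's methods and strain list also give both strains the other mating type, with his3,15 and ade2 in lower case. They give the Not1 degron strain another strain number and another tag. It was not settled which record holds. No probe of the array reads NOT1 itself, so the depletion could not be checked here. The RNA was extracted with phenol at pH 4.5, and 4 pmol each of 4 in vitro tRNA standards were added to 2 µg of it.

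Not1 is the scaffold of the Ccr4-Not complex, which acts in mRNA deadenylation, translation and transcription. tRNAs of the cytosol are transcribed from nuclear genes by RNA polymerase III, whereas the mitochondrion encodes its own set of tRNAs, which serve translation inside the organelle. tRNAs that carry the same amino acid but differ in sequence are isoacceptors. A tRNA microarray reads each of them with a complementary probe that is printed several times. The study asked about tRNA levels in connection with the dwelling of ribosomes at serine codons, and serine and alanine are therefore given in full.

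The arrays held 64 tRNA probes by name, of which 24 had the prefix m and 40 did not. The files leave this prefix unexplained. For all 20 amino acids, the number of probes with prefix m equalled the number of mitochondrial tRNA genes in the R64 annotation, which lists 24 of them beside 275 nuclear ones. The sequences of the probes were not used here. To show what 2 probes of one amino acid may tell apart, the tRNA genes of cysteine and phenylalanine are given below from the R64 genome, since Cys1y had one of the lowest and mPhe1y the highest change. Each sequence is the annotated tRNA gene without introns, 5′ to 3′, with the anticodon in capitals. Its ends are those of the annotation and were not trimmed to the tRNA itself.
Nuclear tRNA-Cys (YNCB0017C, chrII:643007-643078, minus strand): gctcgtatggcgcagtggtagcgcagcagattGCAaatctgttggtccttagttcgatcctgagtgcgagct
Mitochondrial tRNA-Cys (tC(GCA)Q, chrMT:64415-64490, plus strand): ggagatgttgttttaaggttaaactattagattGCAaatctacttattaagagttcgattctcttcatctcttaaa
Nuclear tRNA-Phe (YNCB0002W, chrII:36398-36488, plus strand, 18 intron bases removed): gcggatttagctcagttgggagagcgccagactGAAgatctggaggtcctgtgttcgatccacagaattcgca
Mitochondrial tRNA-Phe (tF(GAA)Q, chrMT:77431-77505, plus strand): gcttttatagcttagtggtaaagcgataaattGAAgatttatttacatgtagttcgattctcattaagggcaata
The 4 nuclear cysteine genes were identical in this sequence, and 8 of the 10 nuclear phenylalanine genes shared the one shown. With the nuclear and the mitochondrial sequence aligned, the same base stood in 43 of 83 columns (51.8%) for cysteine and 48 of 78 (61.5%) for phenylalanine. Columns with a gap are counted in these totals, so the shares are not over paired bases alone. The anticodon is the same in the nuclear and the mitochondrial sequence.

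For each spot the background was subtracted from the median intensity, and log2 values were averaged over the spots of a probe. Each array was then centred on its median probe, so that all values below are log2 units relative to that probe. A difference of 1 is therefore a factor of 2 in fluorescence. The centring removes any change common to all tRNAs. A probe's brightness also depends on its own sequence, and values are compared between strains and not between probes.

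No probe passed the test for a difference between Not1-depleted and wild-type cells. With limma and Benjamini-Hochberg adjustment over the 64 probes, 0 were lower and 0 were higher at an adjusted p of 0.05 (0% of probes in either direction), and the smallest adjusted p was 0.828. Without adjustment, 3 probes were higher at p under 0.05, or 4.69% of those tested, and 0 were lower. These were mPhe1y, mMet2y and mArg1y. The changes lay between -1.06 and 1.54, and 45 of the 64 were smaller than their own standard error. The median standard error was 0.55, so that the 95% interval of a typical probe reached 1.23 to either side of its value. As the plot of the changes shows, the probes with prefix m lay mostly on the side of higher values and the others mostly on the side of lower values. Because each array is centred on the median of all 64 probes, the sides of both groups are not independent.

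**Figure D1:**
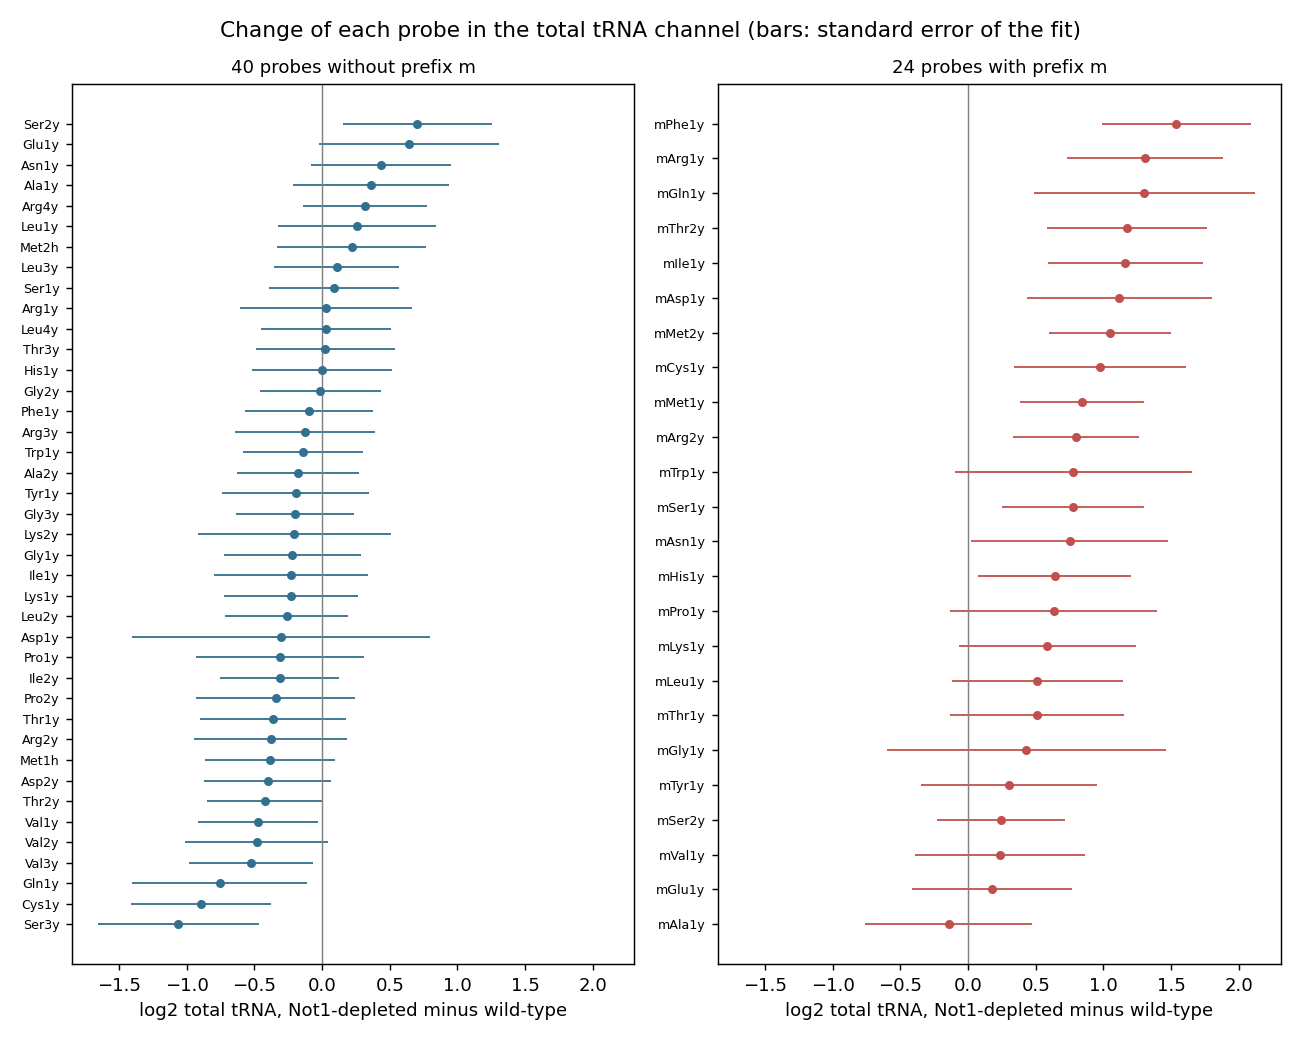
Change of each of the 64 probes between Not1-depleted and wild-type cells in the total tRNA channel, on the log2 scale, with the standard error of the limma fit as bars. Probes without prefix m (left) run from -1.06 (Ser3y) to 0.71 (Ser2y), and those with prefix m (right) from -0.14 (mAla1y) to 1.54 (mPhe1y), with no probe past an adjusted p of 0.05.

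The spread between arrays of one strain was as large as that between strains. Over the 64 probes, the Pearson correlation of the log2 values was between 0.92 and 0.93 for the 3 pairs of Not1-depleted arrays and between 0.89 and 0.93 for the 3 wild-type pairs. The 9 pairs of different strains correlated between 0.88 and 0.97, with a mean of 0.93. The median SD of a probe over 3 arrays was 0.59 in Not1-depleted cells and 0.66 in the wild-type.

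The probe values rest on between 6 and 24 spots each, and not all spots printed or hybridized alike. Each array had 1032 spots of the tRNA probes in 12 blocks, set in 4 columns. A spot was counted as weak when it was over 2 log2 units below the median spot of its name on that array, or not above its background. Of the spots in the third column of blocks, between 7.75% (wild-type replicate 3) and 48.4% (Not1-depleted replicate 2) were weak, against 1.16% to 8.14% in the first and 1.55% to 3.88% in the second column. Weak spots above background pull the average of a probe down on the array where they occur. Weak spots not above background were left out of the average. Several changes given below differ when the median spot is used. Blank spots differed as well. On wild-type replicate 1, 34 of the 108 water spots exceeded 100 intensity units, in 5 of the 12 blocks, whereas at most 6 did so on any other array. As a result, 7 of the 64 probes exceeded the 95th percentile of the blanks on wild-type replicate 1, and between 42 and 64 did on the other 5 arrays. Leaving out the blocks with lit blanks gave 0 calls as well.

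**Figure D2:**
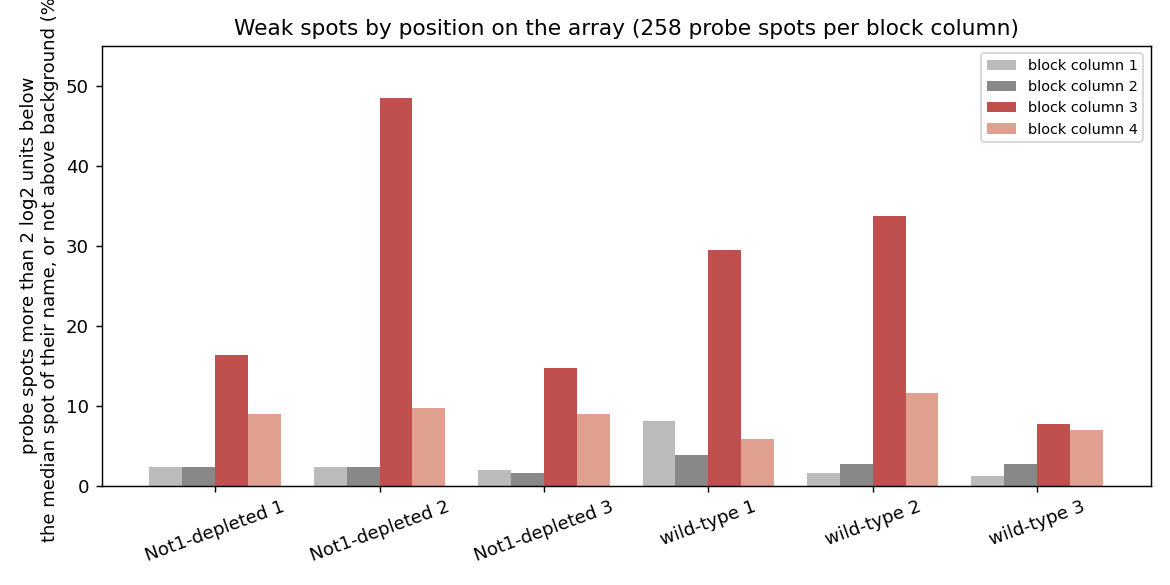
Share of tRNA probe spots, in percent, that lay more than 2 log2 units below the median spot of their name or not above background, for each of the 6 arrays and each of the 4 columns of blocks (258 spots per bar). The third column of blocks has the highest share on every array, from 7.75% on wild-type replicate 3 to 48.4% on Not1-depleted replicate 2.

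The serine probes, given because the study was concerned with serine codons, had values on both sides of 0. Of the 5 serine probes, Ser3y had the lowest change of all 64 probes and Ser2y the highest of the 40 without prefix m. Ser3y was at 0.51, -0.39 and 1.73 upon Not1 depletion, against 1.40, 2.21 and 1.41 in wild-type cells. The third Not1-depleted array thus lay above 2 of the 3 wild-type arrays. The difference was -1.06 with a standard error of 0.60 (limma adjusted p = 0.828, exact two-sided permutation p = 0.3). The low values belonged to arrays with many weak spots of this probe, 5 and 6 of 18 on Not1-depleted replicates 1 and 2. With the median of the repeated spots in place of their mean, the difference of Ser3y was -0.08, and with the first and second columns of blocks alone -0.02.

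Ser2y was at 0.58, 0.75 and 0.22 upon Not1 depletion, against -1.24, 0.63 and 0.05 in wild-type cells, where replicate 1 stood apart. The difference was 0.71 ± 0.55 (SE). It was 0.18 without wild-type replicate 1, which had 4 weak spots of this probe, and 0.26 with the median of the spots. Ser1y was at 0.32, -0.13 and -0.64 against -0.66, 0.21 and -0.27, and both strains covered the same range. Its difference of 0.09 had a 95% interval from -0.98 to 1.16.
The probes mSer1y and mSer2y differed by 0.78 ± 0.52 and 0.24 ± 0.47 (SE). mSer1y was at -3.01, -3.56 and -3.42 upon Not1 depletion, against -3.45, -5.03 and -3.85 in wild-type cells, so that the lowest wild-type array made most of the difference. That array, wild-type replicate 2, had 12 of the 18 spots of mSer1y weak. The difference was 0.81 with the median of the spots and 1.34 in the first and second columns of blocks, and after cyclic loess it was -0.11. mSer2y was at -1.35, -0.59 and -0.90 against -1.44, -1.49 and -0.64, with overlap between the strains.

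The alanine probes were likewise spread around 0. Ala1y was at 1.75, 1.09 and -0.27 upon Not1 depletion, against 0.72, 0.61 and 0.16 in wild-type cells. The Not1-depleted arrays reached both above and below the wild-type, and the difference was 0.36 ± 0.57 (SE). Ala2y was at 0.22, 0.85 and 0.06 against 0.81, 0.37 and 0.48, a difference of -0.18 ± 0.45. For mAla1y the values were -2.22, -2.78 and -1.11 against -0.85, -2.41 and -2.42. Its difference of -0.14 ± 0.62 was the only one below 0 among the 24 probes with prefix m. Over the 8 serine and alanine probes, 0 were called in either direction, 5 had a value above 0 and 3 below, and the median was 0.16, beside 0.06 over all 64 probes.

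**Figure D3:**
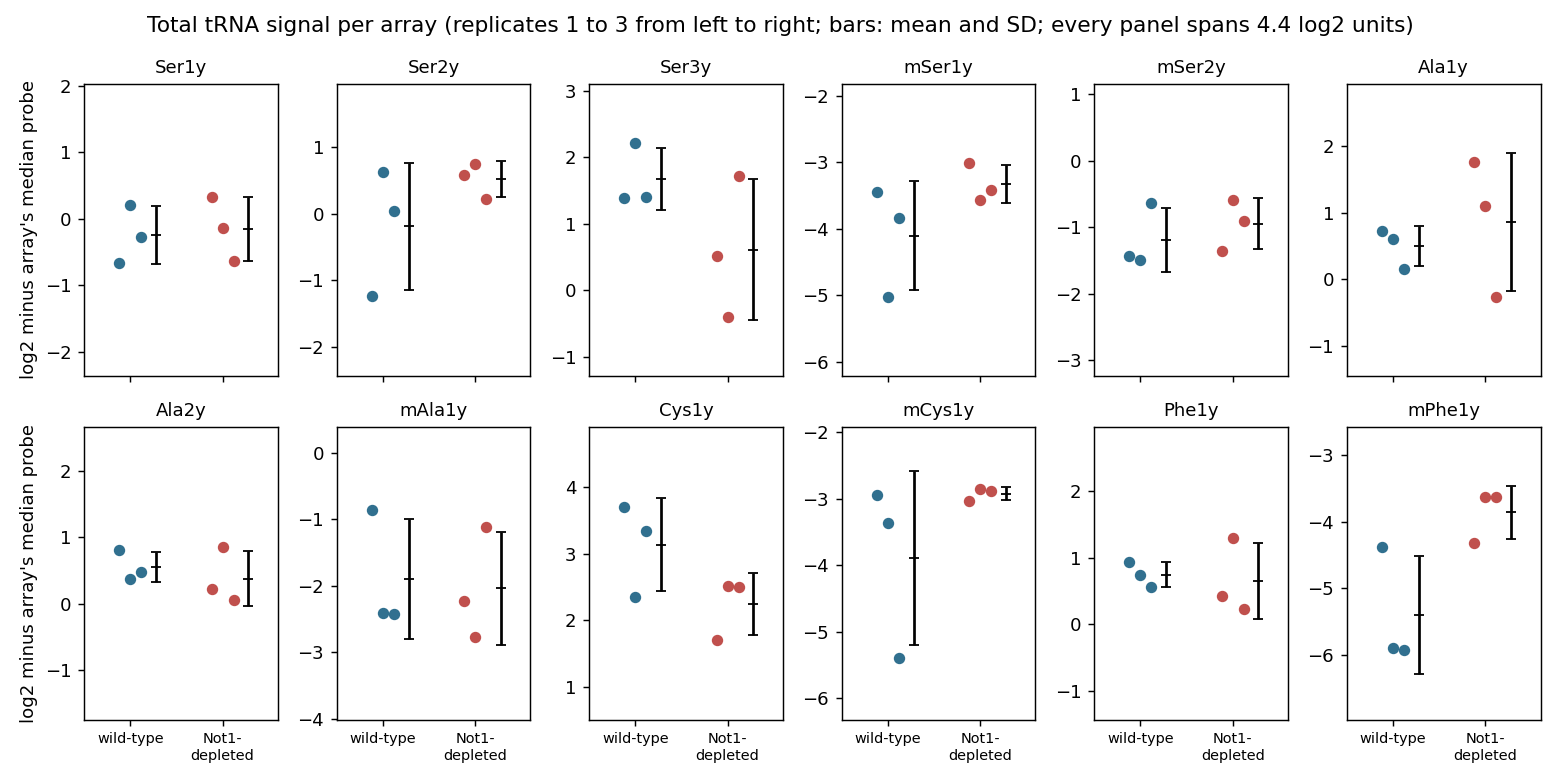
Total tRNA signal of the serine, alanine, cysteine and phenylalanine probes on each array, as log2 intensity minus the array's median probe, with replicates 1 to 3 from left to right and the mean and SD of 3 arrays as bars. The strains overlap in every panel but mPhe1y, where the 3 Not1-depleted arrays lie between -4.33 and -3.63 and the wild-type arrays between -5.93 and -4.37.

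Among the other probes without prefix m, the lowest values after Ser3y were those of Cys1y and Gln1y. Cys1y is named for cysteine, whose nuclear tRNA genes are given above, and its probe sequence was not used here. It was at 1.70, 2.52 and 2.50 upon Not1 depletion, against 3.70, 2.35 and 3.35 in wild-type cells, where replicate 2 lay below 2 Not1-depleted arrays. The difference was -0.89 ± 0.52 (SE), with a 95% interval from -2.05 to 0.26. Cys1y kept a value below 0 in all alternatives, between -0.59 and -1.84. Gln1y was at 0.86, 3.48 and 2.30 against 2.81, 2.77 and 3.31, and its difference of -0.75 ± 0.65 rested on Not1-depleted replicate 1. Without that array the difference of Gln1y was -0.08.

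The 3 valine probes without prefix m all had values below 0, as did 27 of all 40 probes without prefix m. Val1y was at -0.13, -0.23 and -0.35 upon Not1 depletion, against 0.25, -0.18 and 0.62 in wild-type cells, a difference of -0.47 ± 0.44 (SE). Only wild-type replicate 2 fell within the Not1-depleted range. Val2y differed by -0.48 ± 0.53, with values of 0.88, 2.61 and 1.78 against 2.38, 2.04 and 2.29. Val3y differed by -0.52 ± 0.46, with values of -1.26, -1.91 and -1.45 against -1.32, -1.12 and -0.61. With the median of the spots, the differences of Val1y and Val3y were -0.28 and -0.06, and that of Val2y was -0.55. Without Not1-depleted replicate 1, Val2y differed by -0.04. Branched aliphatic amino acids as a group, valine, leucine and isoleucine without prefix m, had a median of -0.26 over 9 probes, 6 of them below 0 and 0 called. Over all 40 probes without prefix m the median was -0.20. Of the 4 leucine probes in the group, 3 were above 0.

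Thr2y was the single probe whose Not1-depleted arrays all lay below the wild-type arrays. This was 1 of 64 probes, or 1.56%. Its values were 0.24, 0.44 and 0.18 in Not1-depleted cells and 0.90, 0.67 and 0.55 in the wild-type, and the arrays of each strain lay close together (SD 0.13 and 0.18). The difference of -0.42 ± 0.43 (SE) corresponds to a factor of 1.34, and the exact permutation p was 0.1, the smallest that 3 arrays against 3 allow. The standard error of limma exceeds that of the 6 values because it is moderated towards the other probes. With the median of the spots the difference of Thr2y was -0.20, and Not1-depleted replicate 2 had 4 of the 18 spots of Thr2y weak. Thr1y and Thr3y, the other threonine probes of this kind, were at -0.36 and 0.03 and were chosen for mention after their values were seen. Asp2y was at 2.82, 3.27 and 3.72 upon Not1 depletion, against 3.79, 3.95 and 3.26 in wild-type cells, a difference of -0.40 ± 0.47. The naming of 6 of its 24 spots is doubtful.

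By class of amino acid, without prefix m and with the probes named above included, the median change was -0.18 over the 11 probes of small amino acids (alanine, glycine, serine, threonine) and -0.30 over the 5 acidic and amide ones (aspartate, glutamate, asparagine, glutamine). It was -0.12 over the 7 basic ones (arginine, histidine, lysine) and -0.14 over the 3 aromatic ones (phenylalanine, tryptophan, tyrosine). Cysteine and methionine together had a median of -0.38 over 3 probes, and the 2 proline probes one of -0.33. Both methionine probes of this kind, Met1h and Met2h, end in h like the human standards His1h and Ser3h, and whether they read yeast tRNA is not given in the sources used here. In all of these groups 0 probes were called, and over the 40 probes the median was -0.20, with 27 below 0 and 13 above. These medians are a description, with no test between the groups.

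The brightest probes were Tyr1y, Glu1y and Arg2y, at a mean log2 intensity of 14.9, 13.6 and 12.6. Tyr1y was at 4.66, 6.23 and 6.24 upon Not1 depletion, against 5.72, 6.25 and 5.75 in wild-type cells, a difference of -0.19 ± 0.54 (SE). Glu1y was at 4.59, 4.85 and 5.27 against 2.70, 4.80 and 5.29, where the low first wild-type array had 4 of 12 spots weak. Its difference of 0.64 ± 0.67 was -0.18 with the median of the spots. Arg2y was at 2.24, 4.22 and 3.65 against 3.91, 3.81 and 3.52, a difference of -0.38 ± 0.56 that was 0.19 without Not1-depleted replicate 1. Asp1y and mGly1y, singled out after their values were seen, had the largest standard errors (1.10 and 1.03). Asp1y ranged from -0.27 to 4.11 over the 3 Not1-depleted arrays and from 0.97 to 4.18 over the wild-type arrays.

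Of the 24 probes with prefix m, 23 had a change above 0, against 13 of the other 40, but the strains overlapped. The median over the 24 was 0.76, against -0.20 over the other 40, and through the centring both medians are not independent. All of the 8 highest changes were those of probes with prefix m, and 0 of the 8 lowest. None was called at an adjusted p of 0.05. The median of these probes on single arrays was -2.33, -2.30 and -1.66 in Not1-depleted cells and -1.63, -2.43 and -3.63 in the wild-type. Wild-type replicate 1 thus lay above all Not1-depleted arrays and replicate 3 far below them. Of the 24 probes, 17 had their lowest value of the 6 arrays on wild-type replicate 3, which was so for 1 of the other 40. Without that array the median change was 0.22 and 14 of the 24 were above 0, and without wild-type replicate 1 it was 1.19 and all 24 were above 0. The plot of all probes by array shows this shift of the wild-type arrays against each other.

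**Figure D4:**
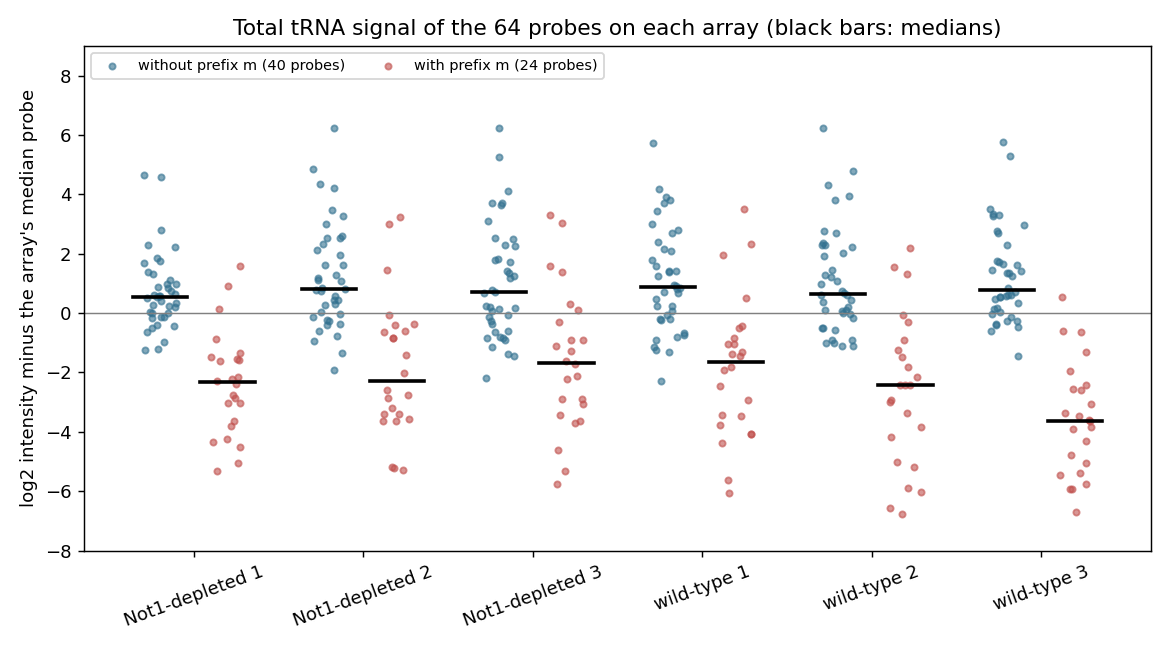
Log2 intensity minus the array's median probe for the 64 probes (points) on each of the 6 arrays, with the 40 probes without prefix m in blue, the 24 with prefix m in red, and medians as black bars. The medians of the probes with prefix m overlap between the strains, from -2.33 to -1.66 in Not1-depleted cells and from -3.63 to -1.63 in the wild-type.

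The median change of the probes with prefix m was smaller after normalization that acts on the whole distribution. Such normalization evens out the arrays at each level of intensity, so it also narrows any difference shared by most dim probes. After quantile normalization the median change of the 24 probes was 0.10, with 14 above 0, and after cyclic loess 0.15, with 15 above 0. With normexp background correction and an offset of 50 it was 0.53. Many of these probes were near the background. The 3 dimmest were mMet2y, mMet1y and mThr1y, at a mean log2 intensity of 3.07, 3.43 and 4.12, and the median local background was between 27 and 37 intensity units. Leaving aside wild-type replicate 1 with its lit blanks, 4 of the 24 exceeded the 95th percentile of the blanks on all of the other 5 arrays, against 38 of the other 40. The part of dim signal in the difference was not tested.

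The highest change was that of mPhe1y, at -4.33, -3.63 and -3.63 upon Not1 depletion, against -4.37, -5.89 and -5.93 in wild-type cells. All Not1-depleted arrays lay above all wild-type arrays, by little in the case of wild-type replicate 1. The difference was 1.54 ± 0.55 (SE), a factor of 2.90, with an unadjusted p of 0.0188 and an adjusted p of 0.828. Before centring, its log2 intensity was at least 4.85 on each Not1-depleted array and 4.99, 2.74 and 3.93 on the wild-type arrays. mPhe1y exceeded the percentile of the blanks used above on only 2 of the 6 arrays, so most of its values were within the range of the blanks. The difference was 2.00 with the median of the spots and 0.48 after cyclic loess. Phe1y, which was set beside it after its values were seen, differed by -0.10 ± 0.47. Its values were 0.42, 1.30 and 0.23 against 0.93, 0.74 and 0.56.

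In 4 of 64 probes, or 6.25%, the Not1-depleted arrays all lay above the wild-type arrays, namely mPhe1y, mMet1y, mMet2y and mArg2y. Of the 6 arrays, mMet2y exceeded the percentile of the blanks used above on 1, mMet1y on 2 and mArg2y on 4. mMet2y was at -5.33, -5.29 and -5.76 against -6.07, -6.75 and -6.69, a difference of 1.05 ± 0.45 (SE). mMet1y was at -5.04, -5.22 and -5.33 against -5.62, -6.57 and -5.93, a difference of 0.84 ± 0.46. The mitochondrion has one methionine tRNA for initiation and another for elongation, and the files do not say which probe reads which. After cyclic loess both differences had the other sign, -0.25 for mMet2y and -0.39 for mMet1y, and after quantile normalization both were 0, since these were the dimmest probes of every array. mArg2y was at -3.79, -3.41 and -3.69 against -4.07, -4.18 and -5.04, a difference of 0.80 ± 0.47, and was singled out after its values were seen. Its difference was -0.14 after cyclic loess and -0.12 after quantile normalization.

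The other probes with high values overlapped between the strains. mArg1y was at -4.51, -3.19 and -3.05 upon Not1 depletion, against -4.06, -5.17 and -5.45 in wild-type cells, a difference of 1.31 ± 0.58 (SE). It was 0.13 when spots with under 50% lit pixels were left out, 0.30 after quantile normalization and 0.33 after cyclic loess. mArg1y exceeded the percentile of the blanks used above on 3 of the 6 arrays. mGln1y was at 0.92, 3.00 and 3.05 against 2.34, 1.32 and -0.60, a difference of 1.30 ± 0.82 that was 0.49 without wild-type replicate 3. mThr2y was at -1.62, -0.40 and 0.10 against -1.05, -2.43 and -1.96, a difference of 1.17 ± 0.59. With the median of the spots it was 0.58, in the first and second columns of blocks 0.38 and in the other two, with the median of the spots, 3.29. With single arrays left out, mArg1y reached from 1.03 to 1.77, mGln1y from 0.49 to 2.00 and mThr2y from 0.80 to 1.67.
mIle1y was at -3.64, -2.02 and -2.90 against -3.44, -3.83 and -4.78, a difference of 1.16 ± 0.57. mAsp1y was at -1.57, -0.36 and -0.89 against -1.30, -1.25 and -3.61, and mCys1y at -3.03, -2.86 and -2.88 against -2.94, -3.36 and -5.39. The differences of 1.12 ± 0.68 and 0.97 ± 0.64 of these 2 probes were 0.34 and 0.23 without wild-type replicate 3. For mThr1y, with values of -4.24, -5.20 and -4.60 against -3.76, -6.02 and -5.77, the difference was 0.51 ± 0.64.

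The overall level of total tRNA, which the centring removes, was read against the in vitro standards. The median probe lay above the median of the standards by 3.05, 2.61 and 3.37 log2 units on the Not1-depleted arrays and by 2.69, 2.99 and 2.73 on the wild-type arrays. The difference of 0.21 ± 0.24 (SE) was within the spread between arrays (exact two-sided permutation p = 0.6, smallest possible 0.1). The standards disagreed among themselves. With single standards the difference was 1.46 for E. coli tRNATyr2, 0.31 for human tRNAHis1, -0.13 for E. coli tRNALys2 and -0.26 for human tRNASer3. Of 36 spots each, between 11 and 23 of tRNATyr2 and between 11 and 17 of tRNAHis1 were not above background on each array. The level of total tRNA was thus measured with little precision. With the first and second columns of blocks alone the difference was 0.89 (exact permutation p = 0.1), and with the other two, taking the median of the spots, it was -1.39.

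The same strains were also hybridized together on 3 abundance arrays, with Cy3 on the Not1-depleted and Atto on the wild-type tRNA and no dye swap. They are separate from the 6 charging arrays, but strain and dye cannot be told apart on them. Centred on each array's median probe, the median log2 value (Not1-depleted over wild-type) was 0.91, 0.67 and 0.81 for the probes with prefix m. For the other 40 it was -0.26, -0.24 and -0.44. Of the 24 with prefix m, 19 were above 0 on all 3 arrays, and 0 of the other 40 were. Because of the centring, 32 of the 64 probes lie above 0 on each of these arrays. More probes with prefix m above 0 thus mean fewer of the others, and the values of both groups are not independent. mPhe1y was at 0.60, 1.35 and 0.61, mMet2y at 3.22, 2.09 and 3.35 and mArg1y at 3.90, 1.55 and 3.00. Ser3y was at -0.56, -0.54 and -0.32 and Cys1y at -0.10, -0.91 and 0.22. Ser2y was at 0.18, 0.56 and -0.15. The part of the dyes in these ratios was not tested.

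**Figure D5:**
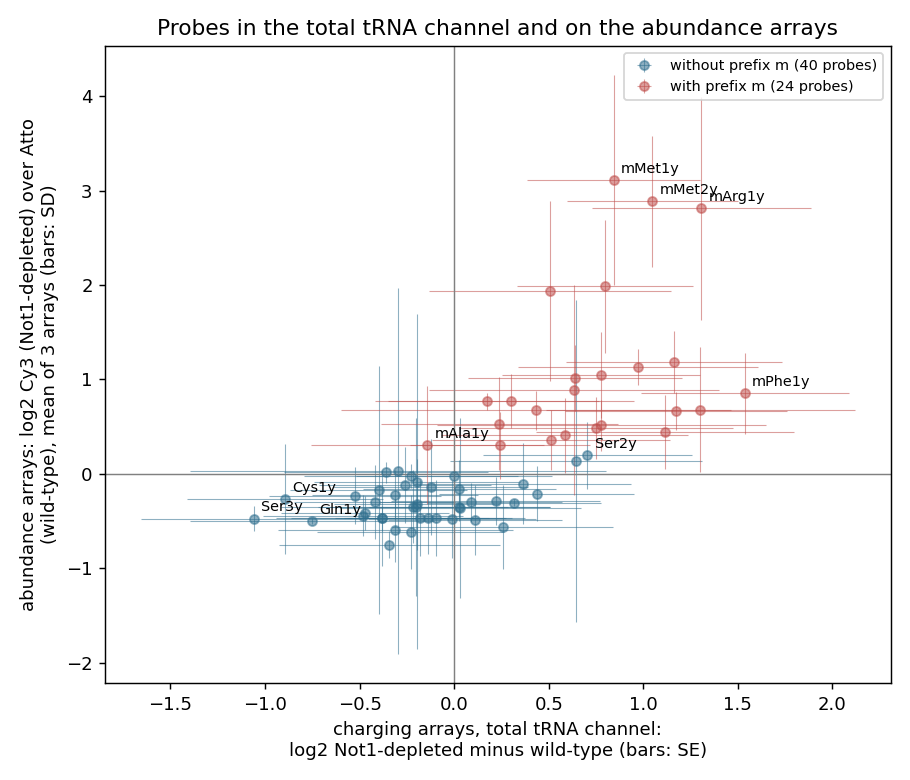
Change of each probe in the total tRNA channel of the charging arrays (horizontal, log2 Not1-depleted minus wild-type, bars are standard errors) beside the log2 ratio of Cy3 (Not1-depleted) to Atto (wild-type) on the abundance arrays (vertical, mean and SD of 3 arrays). Probes with prefix m (red) lie in the upper part, with mMet1y, mMet2y and mArg1y highest on the vertical axis, and Ser3y, Cys1y and Gln1y lie to the lower left.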

How the data were processed

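Deposited tables held, for each spot of a 2-colour array, foreground and background fluorescence intensity as the authors' scanner software gave it, with the percent of lit pixels and saturated pixels. The authors' own normalization to standards is not in the deposited values. Each array had 12 blocks of 11 rows and 11 columns. Probe names in block rows 5 to 8 stood 1 row above their spots, so rows 6 to 8 took the name above and row 5 was left out. The background median was subtracted from the foreground median at 635 nm, spots not above 0 were left out, log2 values were averaged by name and centred on the array's median over 64 probes, and water, marker and standard spots were excluded. Strains were compared with lmFit and eBayes (limma 3.58.1, R 4.3.3) and Benjamini-Hochberg adjustment. The fit was tried on simulated data, where recovery was required only for a shift larger, and a spread smaller, than those seen here. That trial does not give the power of the fit for changes of the size seen here. Intervals are at 95% from the same fit. Single values were compared with exact two-sided permutation tests over 6 arrays. The number of arrays limits the precision.

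Probes were named if past the threshold, among the 8 highest or 8 lowest changes, for serine or alanine, or among the 3 brightest or 3 dimmest. The members and lists were chosen with earlier results of these data known. No 2 arrays shared more than 1.17% of spot values. Python 3.11.15, pandas 2.3.3, scipy 1.17.1, biopython 1.88 and matplotlib 3.10.9 were used for tables, alignments and plots.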

Additional observations from a re-analysis of the deposited data

Results flagged for a closer look

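Spots in block row 5, which have no name after the names are moved and which were left out of all comparisons, carried signal in the total tRNA channel. Among the 132 such spots of an array, a median of 89% over the 6 arrays exceeded the 95th percentile of the blank spots on their array. The share was 82.6%, 89.4% and 90.9% on the Not1-depleted and 12.9%, 88.6% and 91.7% on the wild-type arrays, the low one being the array with lit blanks. With 3 arrays per strain, single arrays were not tested as outliers.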

How the results depend on the processing

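In all 26 alternatives, 0 probes were lower and 0 higher at an adjusted p of 0.05. The smallest adjusted p in any of them was 0.112, and at an unadjusted p under 0.05 at most 2 probes were lower and 7 higher. A replicate block in the fit gave 0 calls as well, while the differences cannot change in a balanced design (the median of the probes with prefix m stays at 0.76). Replicates with the same number deviated from their strain means with correlations of -0.25, 0.20 and -0.40. Those with different numbers reached from -0.23 to 0.47, so the same number did not go with a higher correlation. With 3 arrays per strain, pairing cannot be settled in this way. 6 alternatives were added after seeing the data. These were the first and second block columns, spots not above background set at 1, the doubtful Asp2y spots left out, blocks with lit blanks left out with the mean or the median of spots, and the other two block columns with the median of spots.

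Several changes that were not called crossed 0, and the cause was not tested. With single arrays left out, Ala1y reached from -0.085 to 0.93, Arg2y from -0.80 to 0.19, Glu1y from -0.14 to 1.16, mAla1y from -0.60 to 0.38, Ser1y from -0.15 to 0.33 and Tyr1y from -0.46 to 0.33. Scaled to the standards, Ala2y was 0.032, Tyr1y 0.016 and mAla1y 0.068. Quantile normalization gave 0.10 for Asp2y, -0.28 for mSer1y and -0.25 for mThr1y. Cyclic loess gave -0.39 for mMet1y, -0.25 for mMet2y, -0.11 for mSer1y and -0.60 for mThr1y. With the mean foreground, Glu1y was -0.13 and mAla1y 0.21, and with the median of spots Glu1y was -0.18. Normexp gave 0.020 for mAla1y. Names as deposited gave -0.32 for Ser1y, -0.57 for Ser2y, 0.069 for Val1y and 0.0019 for mAla1y. Without blocks with lit blanks and with the median of spots, Glu1y was -0.12 and mThr1y -0.33. In the other two block columns mAla1y was 0.71 and mThr1y -1.05, and in the first and second mSer2y was -0.20.

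The median of the probes without prefix m was -0.065 when probes under 2 times the background were left out, 0.0095 when scaled to the standards and -0.33 in the other two block columns, and between -0.37 and -0.076 with single arrays left out. That of the probes with prefix m was between 0.22 and 1.19. For serine and alanine without prefix m, names as deposited gave -0.32. Total tRNA relative to the standards was -0.18 with normexp, -0.13 without background subtraction, -0.29 with the mean foreground and -0.34 or -0.43 without blocks with lit blanks (mean or median of spots). It was -1.39 in the other two block columns, -0.13 for EcLys2 alone and -0.26 for Ser3h alone. The mean correlation of replicate arrays was 0.93 in Not1-depleted cells, also 0.93 with normexp, and 0.91 in the wild-type. Without the probes with prefix m it was 0.87 in both.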
